A study of Homo sapiens with 12 samples.

Results

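Transcripts of 10 genes of the hypoxia response were followed in prostate cancer cells with lowered or raised GALNT7, an enzyme that adds O-linked GalNAc sugars to proteins. The genes, out of 59424 in each deposited table, were listed by name and not by a threshold on these values. They are the factors HIF1A and EPAS1 and the targets NDRG1, VEGFA, CA9, ANKRD37, BNIP3, ADM, EGLN3 and ANGPTL4. Earlier results of these data were known when the list was made, so its counts beside all genes are a description. The question was whether the targets moved with HIF1A and with NDRG1 when GALNT7 changed.

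CWR22Rv1 prostate cancer cells, which express the androgen receptor, carried either Lenti-shControl (shControl) or a short hairpin RNA that targets GALNT7 (GALNT7 KD). DU145 prostate cancer cells, which lack it, carried either a Lenti-ORF negative control (OE control) or the GALNT7 overexpression construct (GALNT7 OE). All were stable lines made with lentivirus, and each of the 4 groups had 3 libraries that the labels call biological replicates. The labels do not say whether these came from separate transductions or from separate cultures of a line, so p-values measure the spread between these libraries. The 2 comparisons used different cell lines and different constructs, and no group received low oxygen as a treatment in the labels. In bulk RNA, fewer cells expressing a gene and less RNA per cell cannot be told apart.

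Cells sense oxygen through hypoxia-inducible factors, each a pair of an oxygen-regulated alpha subunit (from HIF1A or EPAS1, the latter coding for HIF-2 alpha) and a stable beta subunit (ARNT or ARNT2). With oxygen present, EGLN enzymes hydroxylate the alpha subunit and the VHL complex marks it for breakdown. Without oxygen the pair accumulates and switches on genes for vessel growth, acid export, glucose use and mitochondrial turnover, and EGLN3 is itself a target that feeds back on the pathway. The alpha subunits are controlled mainly as proteins, and the values below are transcripts.

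GALNT7 itself went the way of the labels: the shControl libraries held 862, 1042 and 1093 normalised counts against 480.5, 501 and 399.7 for GALNT7 KD (log2 fold change -1.11, limma adjusted p=0.00512), and OE control held 1051, 928 and 913 against 1988, 2221 and 2334 for GALNT7 OE (1.18, limma adjusted p=7.99e-05). A normalised count is the number of reads on a gene divided by a size factor for its library. The libraries held 18364512 to 22264533 reads in CWR22Rv1 and 21628718 to 24356910 in DU145. Among the luminal prostate markers, 8 of 8 were expressed in CWR22Rv1 but only 2 of 8 in DU145, where KLK3 was at 0. The 4 epithelial markers were expressed in both lines. The summed normalised count of 6 fibroblast markers ranged over 296 to 368 (shControl) against 715 to 799.5 (GALNT7 KD), and over 305 to 431 (OE control) against 73.0 to 165 (GALNT7 OE). Of the 6, 1 passed in each line, and 1 gene made up most of each difference: LUM went from a mean of 225 to 626 in CWR22Rv1, where COL3A1 went from 23.7 to 9.14, and COL1A1 went from 334 to 90.6 in DU145, where LUM was at 0. The 5 leukocyte markers summed to 13.7 to 19.6 (shControl) against 21.2 to 29.9 (GALNT7 KD), and to 72.5 to 132 (OE control) against 29.6 to 38.1 (GALNT7 OE). In DU145 1 of them passed, lower in overexpression, and CD14 went from a mean of 90.4 to 28.1, while CD3E was at 0 in every library of both lines. The 4 endothelial markers summed to at most 3.87 in CWR22Rv1, and to 32.7 to 36.3 (OE control) and 14.0 to 55.6 (GALNT7 OE) in DU145. The part of these markers in the results below was not tested.

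The promoters of 4 of the 5 members that passed in both comparisons are shown because the hypoxia response element that the factors bind has the core ACGTG or GCGTG. The sequences are from RefSeq (GRCh38.p14), 5′ to 3′ on the gene's strand, upstream of the RefSeq start and without bases of annotated exons, and capitals mark either core on either strand. HIF1A is at chr14:61695263-61695512 (plus strand), EPAS1 at chr2:46297157-46297401 (plus strand), BNIP3 at chr10:131982014-131982173 (minus strand) and ANGPTL4 at chr19:8363905-8364150 (plus strand).
HIF1A: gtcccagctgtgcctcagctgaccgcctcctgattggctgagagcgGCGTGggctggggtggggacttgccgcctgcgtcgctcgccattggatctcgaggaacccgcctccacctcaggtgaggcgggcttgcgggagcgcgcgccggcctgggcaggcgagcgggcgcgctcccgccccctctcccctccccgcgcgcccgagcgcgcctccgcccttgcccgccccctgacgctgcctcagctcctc
EPAS1: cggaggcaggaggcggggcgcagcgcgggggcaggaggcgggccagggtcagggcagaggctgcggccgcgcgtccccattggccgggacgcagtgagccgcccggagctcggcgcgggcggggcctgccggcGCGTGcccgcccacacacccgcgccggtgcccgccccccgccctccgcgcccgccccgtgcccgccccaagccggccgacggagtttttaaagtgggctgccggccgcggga
BNIP3: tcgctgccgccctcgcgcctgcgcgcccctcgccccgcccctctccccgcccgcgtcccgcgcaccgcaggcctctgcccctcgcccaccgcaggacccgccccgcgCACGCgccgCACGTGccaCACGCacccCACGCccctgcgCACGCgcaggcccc
ANGPTL4: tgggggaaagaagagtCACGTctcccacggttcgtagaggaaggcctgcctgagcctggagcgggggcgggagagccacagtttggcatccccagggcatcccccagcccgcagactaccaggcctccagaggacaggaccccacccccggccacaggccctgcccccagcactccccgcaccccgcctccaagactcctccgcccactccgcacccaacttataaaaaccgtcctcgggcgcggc
The 250 bases upstream were given for 8 of the 10 members, and 7 of these members held a core in at least 1 window. HIF1A had a further window, at chr14:61697462-61697711, that held no core. Among all 35116 promoters searched the same way, 43.2% held one, 18.5% with ACGTG and 32.2% with GCGTG. BNIP3 had 6 matches, of which 2 were the 2 strands of CACGTG, the E-box, which contains ACGTG and was found in 6.34% of promoters. HIF1A (in the window shown), EPAS1, CA9, ADM and ANGPTL4 had 1 match each, ANKRD37 had 3, again with a CACGTG counted on both strands, and EGLN3 had none. The windows of ANKRD37 and ADM lay wholly within annotated exons, and the CA9 match lay in the exon part of its window. A match describes letters in a window and does not show that a factor binds there.

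After GALNT7 knockdown 5 of the 10 members were higher than in shControl and 0 were lower by limma at an adjusted p of 0.05, while of all genes tested 9.06% passed, 5.28% higher and 3.79% lower. Unadjusted p under 0.05, edgeR and DESeq2 also gave 5 higher and 0 lower. The 5 were HIF1A, EPAS1, NDRG1, BNIP3 and ANGPTL4. The fitted log2 fold change was above 0 for each of the 10, with a median of 0.56 against -0.01 over all 17906 genes tested. For CA9 (0.007) and VEGFA (0.024) it was close to 0 and changed sign under some alternative settings. After overexpression 2 of the 9 members that could be tested were higher (BNIP3 and ANGPTL4) and 4 were lower (HIF1A, EPAS1, NDRG1 and VEGFA), with 43.5% of all genes passing, 22.9% higher and 20.5% lower. The members' median there was -0.17, against -0.01 over all 18705 genes tested. Of all calls, 58.2% were higher in knockdown and 52.8% in overexpression, and these shares fell to 34.8% and 38.0% when libraries were scaled to their 75th percentile. The groups did not overlap for 6 of the 10 members in knockdown and 7 of the 9 in overexpression, where the same held for 32.5% and 55.3% of all genes tested. A two-sided exact permutation test of 3 libraries against 3 cannot go below p=0.1. HIF1A, VEGFA, CA9, ANKRD37, BNIP3, EGLN3 and ANGPTL4 overlap annotated genes on the opposite strand, such as UFSP2 for ANKRD37 and ARHGEF39 for CA9, and although the kit keeps strand, whether the counting used it is not given in the sources used here.

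**Figure D1:**
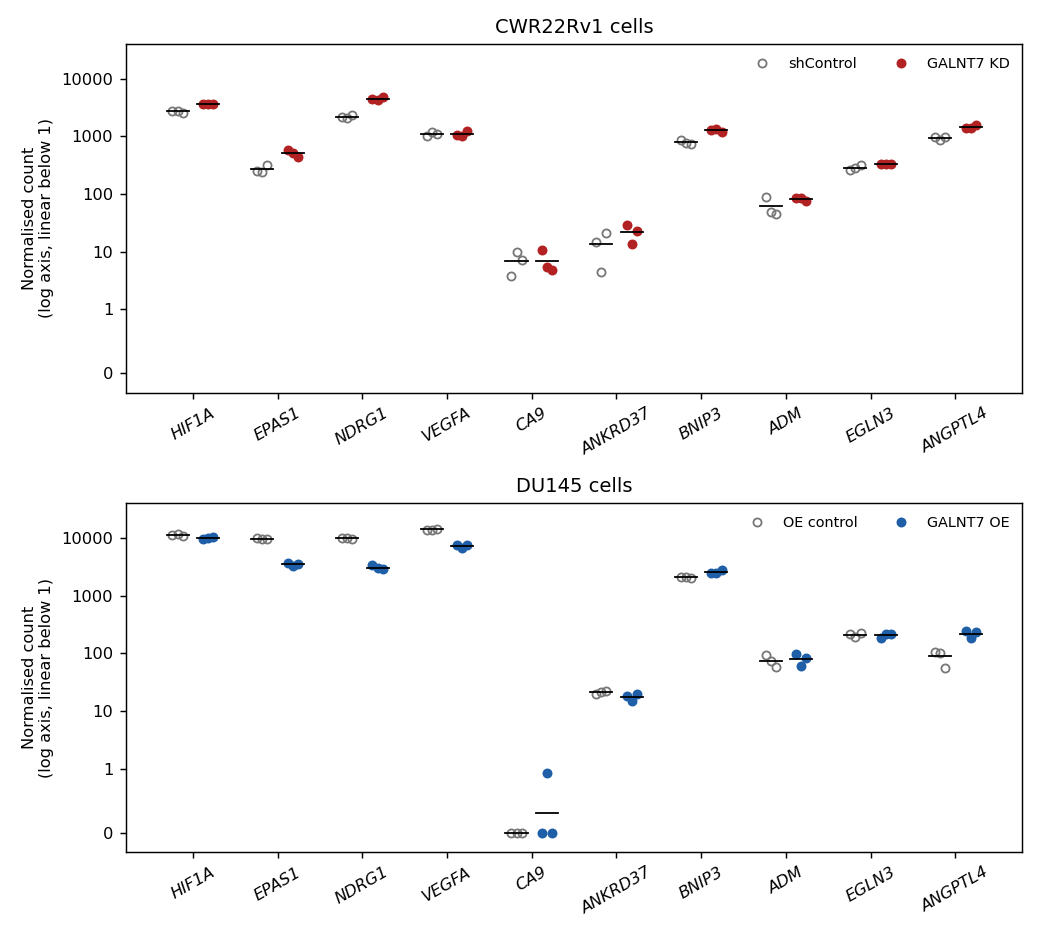
Normalised counts of the 10 members in each library, on a log axis that is linear below 1, for CWR22Rv1 (top) and DU145 (bottom). Open circles are control libraries, filled circles are libraries with changed GALNT7 and black lines are group means of 3. The NDRG1 libraries lie between 2123 and 2306 in shControl and between 4265 and 4741 in GALNT7 KD, then drop from 9718 or more in OE control to 3350.5 or less in GALNT7 OE.

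HIF1A (ENSG00000100644, chromosome 14, 61695513 to 61748259, plus strand) codes for HIF-1 alpha. Its normalised counts were 2809, 2756 and 2552 in the shControl libraries and 3656, 3583 and 3575 in the GALNT7 KD libraries. Each knockdown library was above each control library. The change was 1.33-fold, a log2 fold change of 0.41 (SE 0.0533, limma adjusted p=0.00753), and it passed in 17 of 17 alternative settings. In DU145 the counts were 11097, 11704 and 10850.3 in OE control and 9560.4, 9922 and 10375 in GALNT7 OE. The groups again did not overlap, with overexpression lower. The log2 fold change of -0.17 (SE 0.0457, limma adjusted p=0.0207) lay close to the threshold. It missed it without OE control replicate 1 (limma adjusted p=0.0542), OE control replicate 2 (0.0736), GALNT7 OE replicate 1 (0.0519) or GALNT7 OE replicate 2 (0.0543), and in a fit without a variance trend (0.0987). HIF1A overlaps AL137129.1 on its own strand, and reads shared by the 2 cannot be assigned with certainty.

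EPAS1 (ENSG00000116016, chromosome 2, 46293667 to 46386703, plus strand) is the other alpha subunit. Its counts were 252, 241 and 318 in shControl and 573, 522 and 443 in GALNT7 KD. All knockdown libraries were above all control libraries, and the fold change was 1.90. The log2 fold change of 0.92 (SE 0.148, limma adjusted p=0.0145) did not pass without shControl replicate 1 (limma adjusted p=0.0618), shControl replicate 2 (0.0502) or GALNT7 KD replicate 1 (0.0624). In DU145 the counts were 9802, 9397 and 9424 in OE control and 3605, 3310.1 and 3499 in GALNT7 OE. Overexpressing cells thus held fewer EPAS1 reads in every library, by 2.75-fold (log2 fold change -1.46, SE 0.0456, limma adjusted p=3.22e-06), and this passed in 17 of 17 alternatives.

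NDRG1 (ENSG00000104419, chromosome 8, 133237171 to 133302022, minus strand) is a stress-responsive gene widely used as a readout of hypoxia and, in prostate cells, of androgen. Its counts were 2204, 2123 and 2306 in shControl and 4450.2, 4265 and 4741 in GALNT7 KD. The groups were far apart, at 2.03-fold (log2 fold change 1.02, SE 0.0598, limma adjusted p=0.000512). In DU145 the counts were 9964, 10162 and 9718 in OE control and 3350.5, 2959 and 2843 in GALNT7 OE. Here NDRG1 was lower by 3.27-fold (log2 fold change -1.71, SE 0.0655, limma adjusted p=6.23e-06), the largest fitted decrease among the members. Both calls were kept in 17 of 17 alternatives. HIF1A, EPAS1 and NDRG1 were therefore the 3 of the 9 members tested in both lines that passed as higher with less GALNT7 and lower with more. The share of all genes that did so was not counted.

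**Figure D2:**
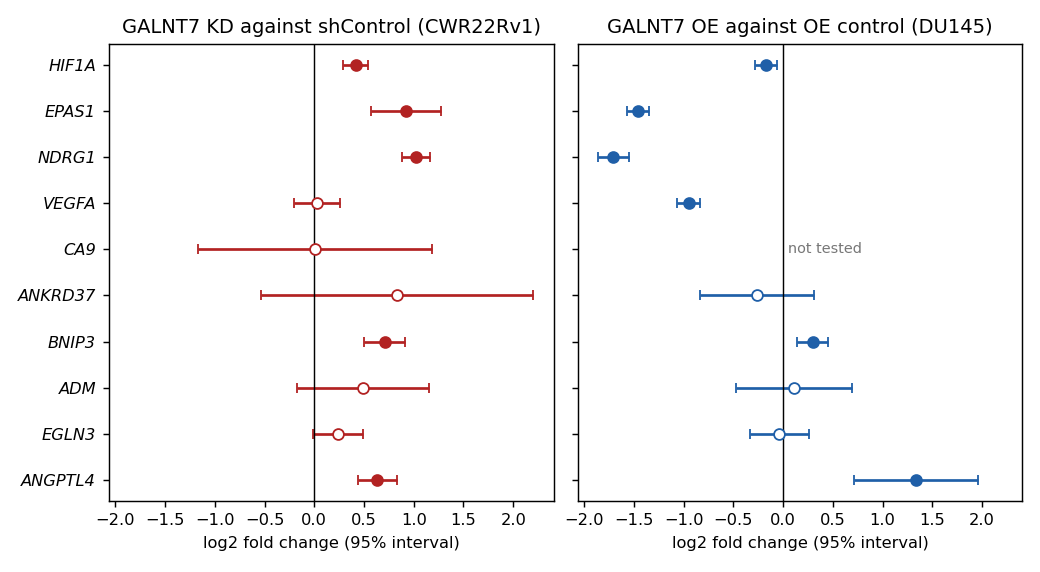
Log2 fold change of each member with its 95% interval, for GALNT7 KD against shControl in CWR22Rv1 (left) and GALNT7 OE against OE control in DU145 (right). Filled points passed the limma adjusted p of 0.05 and open points did not. EPAS1 and NDRG1 lie on opposite sides of 0 in the 2 panels, whereas BNIP3 and ANGPTL4 lie above 0 in both.

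Among the secreted targets, VEGFA (ENSG00000112715, chromosome 6, 43770184 to 43786487, plus strand), the main growth factor of vessels, changed in DU145. Its counts were 13828, 13761 and 14522 in OE control and 7475, 6794 and 7531 in GALNT7 OE. The overexpression libraries lay below all controls, 1.93-fold lower (log2 fold change -0.95, SE 0.0501, limma adjusted p=2.03e-05), and passed in 17 of 17 alternatives. In CWR22Rv1 the counts were 1009.9, 1168 and 1115 in shControl and 1073, 1033 and 1247 in GALNT7 KD. These groups overlapped, and the log2 fold change of 0.02 had a 95% interval from -0.21 to 0.25 (limma adjusted p=0.912). VEGFA thus passed in overexpression alone.

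ANGPTL4 (ENSG00000167772, chromosome 19, 8363289 to 8374373, plus strand) codes for a secreted inhibitor of lipoprotein lipase and was higher in both comparisons. In CWR22Rv1 the counts were 966, 868 and 989.8 in shControl and 1396, 1407 and 1579 in GALNT7 KD. The groups did not overlap, and the log2 fold change was 0.63 (SE 0.0833, limma adjusted p=0.00811). In DU145 the counts were 107, 101 and 56.4 in OE control and 240.5, 182 and 231 in GALNT7 OE. Again each overexpression library was above each control, at 2.53-fold (log2 fold change 1.34, SE 0.263, limma adjusted p=0.0061). Both calls were kept in 17 of 17 alternatives. The direction of ANGPTL4 in DU145 was the opposite of that of HIF1A, EPAS1 and NDRG1.

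ADM (ENSG00000148926, chromosome 11, 10304680 to 10307397, plus strand), the gene of the vasodilator adrenomedullin, passed in neither line. Its counts were 90.5, 48.6 and 45.8 in shControl and 87.0, 86.4 and 75.1 in GALNT7 KD, where shControl replicate 1 lay above all knockdown libraries. The log2 fold change was 0.49 with a 95% interval from -0.18 to 1.15 (limma adjusted p=0.321). In DU145 the 3 control libraries held 57.4 to 91.6 and the 3 overexpression libraries 61.0 to 97.2, with a log2 fold change of 0.11 (95% interval -0.47 to 0.70, limma adjusted p=0.74). These intervals leave room for a change as large as that of ANGPTL4 in knockdown.

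BNIP3 (ENSG00000176171, chromosome 10, 131966455 to 131982013, minus strand) marks mitochondria for removal by autophagy. Its counts were 855, 773 and 728 in shControl and 1309, 1346 and 1196 in GALNT7 KD. The groups did not overlap, at 1.64-fold (log2 fold change 0.71, SE 0.0870, limma adjusted p=0.00651), and the call was kept in 17 of 17 alternatives. In DU145 the counts were 2087, 2121 and 2055 in OE control and 2419, 2499 and 2804 in GALNT7 OE. They were higher in overexpression by a log2 fold change of 0.30 (SE 0.0657, limma adjusted p=0.00973). With libraries scaled to their 75th percentile, which moved the median of all genes in overexpression from -0.01 to -0.14, this became 0.16 (limma adjusted p=0.0574). BNIP3 has many processed copies in the annotation, BNIP3P1 among them, and how reads were split between it and them is uncertain.

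EGLN3, CA9 and ANKRD37 passed in neither comparison. EGLN3 (ENSG00000129521, chromosome 14, 33924231 to 34462774, minus strand), the oxygen sensor that is itself induced, held 258, 278.5 and 313 in shControl and 336, 333 and 330.4 in GALNT7 KD. Those groups did not overlap, but the log2 fold change of 0.24 (95% interval -0.01 to 0.49) did not pass (limma adjusted p=0.204). In DU145 EGLN3 held 189 to 228 in OE control and 181 to 217 in GALNT7 OE (log2 fold change -0.04, 95% interval -0.34 to 0.26, limma adjusted p=0.821). Its annotated span overlaps SPTSSA on the same strand.

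CA9 (ENSG00000107159, chromosome 9, 35673856 to 35681159, plus strand) codes for a surface carbonic anhydrase and is a classical hypoxia marker with little expression in oxygenated cells. It held 3.73, 9.73 and 7.32 normalised counts in shControl and 10.6, 5.33 and 4.82 in GALNT7 KD, from 23 and 21 reads in all. The log2 fold change of 0.01 had a 95% interval from -1.17 to 1.18 (limma adjusted p=0.995), so a change of either sign was not detectable at this depth. In DU145 there was 1 read in 6 libraries, in GALNT7 OE replicate 2, and CA9 was not tested. ANKRD37 (ENSG00000186352, chromosome 4, 185396021 to 185400628, plus strand), a small ankyrin repeat gene induced by hypoxia, was also sparse. Its counts were 14.9, 4.42 and 21.1 in shControl and 29, 13.9 and 23.1 in GALNT7 KD, overlapping, with a log2 fold change of 0.83 (95% interval -0.54 to 2.20, limma adjusted p=0.412). In DU145 it held 20.04 to 22.2 in OE control and 14.8 to 19.9 in GALNT7 OE. These did not overlap, by a margin of less than 1 normalised count, and the log2 fold change was -0.27 (95% interval -0.84 to 0.31, limma adjusted p=0.411).

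Counts were divided by the length of all annotated exons of a gene, 5151 bases for HIF1A, 9823 for NDRG1 and 14431 for VEGFA. Per kilobase of this length, HIF1A ranked first in each group, at 525 ± 26.4 normalised counts per kb in shControl (SD, n=3) and 2178 ± 85.2 in OE control (SD, n=3). The order depends on this length. Undivided, the mean of VEGFA was above that of HIF1A in OE control (14037 against 11217). That of NDRG1 was above it in GALNT7 KD (4485 against 3605). Per kilobase in shControl, HIF1A was followed by ANGPTL4 (379 ± 26.0), NDRG1 (225 ± 9.36), BNIP3 (147 ± 12.1) and VEGFA (76.1 ± 5.58), no 2 of which overlapped in range with their neighbour. EGLN3 (38.5 ± 3.81), EPAS1 (37.0 ± 5.66) and ADM (22.7 ± 9.22) came next. EGLN3 overlapped EPAS1, and EPAS1 overlapped ADM, which did not overlap the gene below it. ANKRD37 (5.22 ± 3.26) and CA9 (4.15 ± 1.81) were lowest and overlapped. In OE control the order was different: EPAS1 (1307 ± 31.0) came second, ahead of NDRG1 (1013 ± 22.7) and VEGFA (973 ± 29.2), which overlapped, and BNIP3 (392.0 ± 6.17). ANGPTL4, second in shControl, was at 35.5 ± 11.1 in OE control and overlapped EGLN3 (28.6 ± 2.65), which overlapped ADM (27.3 ± 6.29), and ANKRD37 was at 8.23 ± 0.420. In GALNT7 OE the levels of VEGFA (504 ± 28.4), BNIP3 (483 ± 38.1) and EPAS1 (475 ± 20.5) ran into each other, and NDRG1 (311 ± 27.1) lay below them. The tables of the 2 lines were scaled separately, so levels are ordered only within a line.

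Whether a target moved by the same amount as HIF1A was tested by subtracting each library's own log2 HIF1A value from every gene before the fit. In knockdown, 4 of the other 9 members differed from HIF1A, as did 47% of all genes. NDRG1 rose further than HIF1A by 0.60 on the log2 scale (SE 0.0836, limma adjusted p=0.00231), in 10 of 10 alternatives. EPAS1 exceeded it by 0.51 (SE 0.168, limma adjusted p=0.0412) and BNIP3 by 0.30 (SE 0.0821, limma adjusted p=0.0232), while VEGFA fell behind it, at -0.39 (SE 0.114, limma adjusted p=0.0272). These 3 calls were each lost when any 1 of 4 libraries was left out. BNIP3 was lost without GALNT7 KD replicate 1 or 2 or shControl replicate 2 or 3 (limma adjusted p 0.0264 to 0.0754 over the 6 libraries left out), and VEGFA without the same 4 (0.0190 to 0.0872). EPAS1 was lost without GALNT7 KD replicate 1 or 2 or shControl replicate 1 or 2 (0.0181 to 0.124). ANGPTL4 differed from HIF1A by 0.22 (SE 0.104, limma adjusted p=0.119), and ADM, EGLN3, CA9 and ANKRD37 did not pass either, with differences of 0.07, -0.18, -0.41 and 0.42.

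In overexpression, 5 of the other 8 members tested differed from HIF1A, beside 44.4% of all genes, and all 5 did so in 10 of 10 alternatives. NDRG1 (-1.54, SE 0.0900, limma adjusted p=2.65e-05), EPAS1 (-1.29, SE 0.0684, limma adjusted p=1.91e-05) and VEGFA (-0.78, SE 0.06998, limma adjusted p=0.00015) were lower relative to it. ANGPTL4 (1.51, SE 0.252, limma adjusted p=0.00247) and BNIP3 (0.47, SE 0.0594, limma adjusted p=0.000668) were higher relative to it. ADM, EGLN3 and ANKRD37, at 0.29, 0.13 and -0.09, did not pass. Targets therefore lay on both sides of HIF1A.

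**Figure D3:**
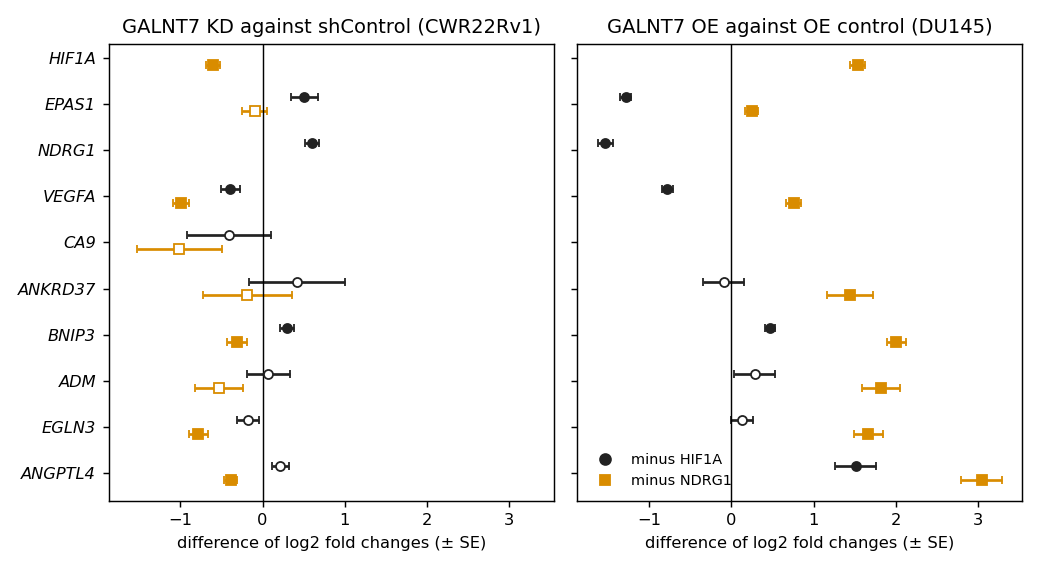
Each member's log2 fold change minus that of HIF1A (black circles) and minus that of NDRG1 (orange squares), with SE, in CWR22Rv1 (left) and DU145 (right). Filled symbols passed the limma adjusted p of 0.05 and CA9 has none in DU145. In DU145 all orange squares lie right of 0, from 0.25 for EPAS1 to 3.05 for ANGPTL4.

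Against NDRG1, 5 of the other 9 members differed in knockdown, where 82.2% of all genes did. In both lines the HIF1A value here is the NDRG1 difference given above with its sign reversed, and not a further result. Its SE and adjusted p differ because each fit estimated its own variances and adjusted its own set of p-values. In knockdown 82.2% of genes passed in the NDRG1 fit and 47% in the HIF1A fit. VEGFA (-0.996, SE 0.0970, limma adjusted p=6.48e-05), EGLN3 (-0.78, SE 0.114, limma adjusted p=0.00043), HIF1A (-0.60, SE 0.0880, limma adjusted p=0.000426) and ANGPTL4 (-0.39, SE 0.0770, limma adjusted p=0.00223) rose less than NDRG1 or did not rise, in 10 of 10 alternatives. BNIP3 was at -0.31 (SE 0.120, limma adjusted p=0.0436) and was lost without GALNT7 KD replicate 1 or 3 or shControl replicate 1 or 2 (0.0252 to 0.14 over the 6 libraries left out). EPAS1 was the member nearest to NDRG1, at -0.10 (SE 0.155, limma adjusted p=0.575). In overexpression 8 of 8 differed, beside 87.3% of all genes. EPAS1 was again nearest, at 0.25 (SE 0.0787, limma adjusted p=0.0163), a call lost in a fit without a variance trend and without OE control replicate 2 (limma adjusted p=0.00399 to 0.0752 over the libraries left out). VEGFA (0.76, SE 0.0874, limma adjusted p=4.86e-05) also fell with NDRG1 but by less. ANKRD37 (1.44), HIF1A (1.54), EGLN3 (1.67), ADM (1.82), BNIP3 (2.01) and ANGPTL4 (3.05) were further away.

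Beyond the members, 73 genes of the pathway were examined by role. In knockdown 17 of the 70 tested were higher and 3 were lower (median log2 fold change 0.17), where 5.28% of all genes were higher and 3.79% lower. In overexpression 24 of 72 were higher and 20 lower (median 0.05), where 22.9% of all genes were higher and 20.5% lower. The same shares over all genes stand behind the counts by role that follow. Leaving out 1 library at a time put the number higher in knockdown between 3 (without GALNT7 KD replicate 1) and 12. It was 4 without shControl replicate 1 or 3, 6 without shControl replicate 2 and 11 without GALNT7 KD replicate 2. Of 70 genes tested in both lines, 9 passed with opposite directions, 8 passed with the same direction, 3 passed in knockdown alone, 25 in overexpression alone and 25 in neither. The 9 members tested in both divided into 3, 2, 0, 1 and 3. The same classes were not counted over all genes, so these divisions are a description and cannot be set against a background.

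The beta subunits were lower in DU145 with GALNT7 overexpression. ARNT, the common partner of both alpha subunits, went from 4165 ± 223 to 3160 ± 167 normalised counts (SD, n=3 each; log2 fold change -0.40, SE 0.0607, limma adjusted p=0.00202). ARNT2 went from 835 ± 17.1 to 380.3 ± 11.8 (SD, n=3 each; log2 fold change -1.13, SE 0.0686, limma adjusted p=3.52e-05). In knockdown neither passed, with log2 fold changes of 0.12 for ARNT (limma adjusted p=0.216) and 0.19 for ARNT2 (0.793). HIF3A, the remaining alpha subunit, was uneven between replicates, at 83.1, 2.65 and 43.0 in shControl and 98.6, 44.8 and 2.89 in GALNT7 KD, and passed in neither line.

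Of 8 oxygen-sensing genes besides EGLN3, 0 passed in knockdown by limma or edgeR, with 3 higher at an unadjusted p under 0.05. EGLN1 and ELOC, at log2 fold changes of 0.33 and 0.19 (limma adjusted p=0.0918 and 0.0694), were the 2 that passed in DESeq2. In overexpression 3 were higher and 1 lower. The scaffold CUL2 of the VHL complex rose by 0.53 on the log2 scale (SE 0.0534, limma adjusted p=0.000314), ELOC by 0.22 (SE 0.0584, limma adjusted p=0.0200) and RBX1 by 0.28 (SE 0.0715, limma adjusted p=0.0177). ELOC did not pass without OE control replicate 2 or 3 or GALNT7 OE replicate 2 or 3 (limma adjusted p=0.0113 to 0.0652 over the 6 libraries left out), nor RBX1 without OE control replicate 2 or 3 or GALNT7 OE replicate 2 (0.0258 to 0.0581). ELOC was at 0.088 with 75th percentile scaling (limma adjusted p=0.228), 0.104 with quantile normalisation (0.175) and 0.101 with chromosome medians removed (0.369), and RBX1 at 0.147 with 75th percentile scaling (0.159), so neither passed there. The prolyl hydroxylase EGLN2 fell by 0.43 (SE 0.0701, limma adjusted p=0.00281), from 1834 ± 137 to 1362 ± 46.1 normalised counts (SD, n=3 each). VHL itself missed the threshold, at -0.17 (limma adjusted p=0.0502), but passed as lower in 6 of 17 alternatives, among them edgeR (adjusted p=0.0494), DESeq2 (0.0299), quantile normalisation (limma, 0.00937) and 75th percentile scaling (limma, 0.00799). HIF1AN (0.998), EGLN1 (0.518) and ELOB (0.0919) did not pass.

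**Figure D4:**
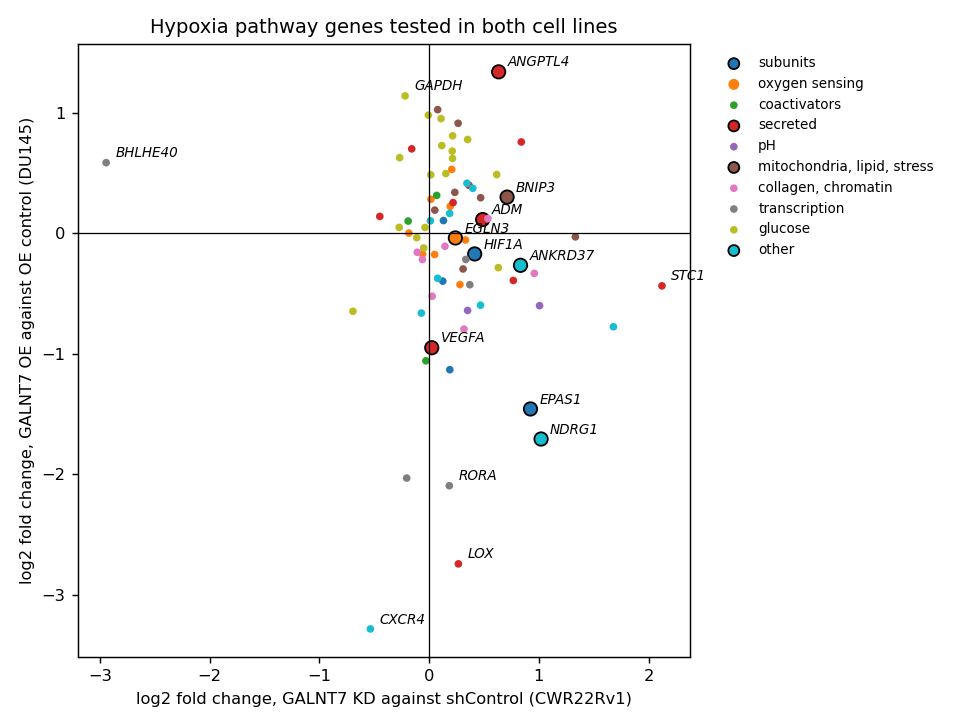
Log2 fold change in knockdown (horizontal) against that in overexpression (vertical) for the pathway genes tested in both lines, coloured by role. Large outlined points are the members. EPAS1 and NDRG1 lie at the lower right, ANGPTL4 and BNIP3 at the upper right, and glucose genes spread upward along 0 in knockdown.

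Of the glucose genes in DU145, 12 of 19 were higher and 1 was lower, with a median log2 fold change of 0.62, beside 22.9% and 20.5% of all genes. GAPDH, the glycolytic dehydrogenase, went from 40702 ± 189 to 89637 ± 1861 normalised counts (SD, n=3 each; log2 fold change 1.14, SE 0.0231, limma adjusted p=8.49e-07). GPI, which interconverts glucose and fructose phosphates, rose by 0.95 on the log2 scale (SE 0.0436, limma adjusted p=1.09e-05). HK2, which traps glucose in the cell, rose by 0.98 (SE 0.312, limma adjusted p=0.0406), a call lost on leaving out any of the libraries except GALNT7 OE replicate 1 (limma adjusted p=0.00982 to 0.12), with 75th percentile scaling (0.0652) and without a variance trend (0.0762). In CWR22Rv1, 5 of 18 were higher and 2 lower, with a median of 0.06, beside 5.28% and 3.79% of all genes. PFKP, a phosphofructokinase, rose by 0.62 (SE 0.107, limma adjusted p=0.0190) and PFKFB4, which makes an activator of phosphofructokinase, by 0.63 (SE 0.134, limma adjusted p=0.0349). PFKP was lost without shControl replicate 1 or 3 or GALNT7 KD replicate 1 or 2 (limma adjusted p=0.0197 to 0.0769 over the 6 libraries left out), and PFKFB4 on leaving out any library except GALNT7 KD replicate 2 (0.0313 to 0.119), with 75th percentile scaling (0.0505), without a variance trend (0.0657) and with chromosome medians removed (0.0665). TPI1 fell by 0.27 (SE 0.0251, limma adjusted p=0.00269) and GAPDH fell by 0.22 (SE 0.0232, limma adjusted p=0.00377). Both lie on chromosome 12, and with each library's chromosome medians removed their log2 fold changes were -0.06 and -0.01 (limma adjusted p=0.375 and 0.875). Without a variance trend neither passed (limma adjusted p=0.071 for TPI1 and 0.114 for GAPDH). After quantile normalisation TPI1 kept its call and GAPDH had a difference of 0. That method gives the same value to a gene that holds the same rank in every library. The 0 therefore cannot show whether GAPDH changed.

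Secreted and acid-export targets included the largest increase among these genes in CWR22Rv1. STC1, a secreted glycoprotein hormone, held 1324, 1332 and 1461 in shControl and 5995, 6120 and 5789 in GALNT7 KD, a 4.35-fold difference (log2 fold change 2.12, SE 0.0582, limma adjusted p=2.76e-05). It was lower in DU145 with overexpression, by 0.44 on the log2 scale (SE 0.0766, limma adjusted p=0.00371). SLC16A3, the lactate exporter MCT4, rose by 1.006 in knockdown (SE 0.210, limma adjusted p=0.0337) and fell by 0.60 in overexpression (SE 0.113, limma adjusted p=0.00509). P4HA2, a collagen prolyl hydroxylase, rose by 0.96 in knockdown (SE 0.161, limma adjusted p=0.0170) and fell by 0.33 in overexpression (SE 0.0743, limma adjusted p=0.0103). The knockdown call of SLC16A3 was lost on leaving out any library except GALNT7 KD replicate 2 (limma adjusted p=0.0232 to 0.115) and without a variance trend (0.0723), and that of P4HA2 without GALNT7 KD replicate 1 or shControl replicate 2 or 3 (0.0228 to 0.0712 over the 6 libraries).

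Other targets had large decreases. BHLHE40, a repressor of transcription induced by HIF, held 272, 164 and 136 in shControl and 25.1, 23.5 and 20.2 in GALNT7 KD, so it was 7.69-fold lower (log2 fold change -2.94, SE 0.275, limma adjusted p=0.00269), and it was higher in GALNT7 OE by 0.59 (SE 0.0869, limma adjusted p=0.0018). In DU145 the chemokine receptor gene CXCR4 held 94.5, 98.2 and 86.6 in OE control and 10.02, 10.2 and 6.29 in GALNT7 OE (log2 fold change -3.28, SE 0.246, limma adjusted p=8.69e-05). LOX, which crosslinks collagen, held 1196, 1128 and 1187 in OE control and 156, 185 and 181 in GALNT7 OE (log2 fold change -2.74, SE 0.0925, limma adjusted p=3.92e-06). The nuclear receptor gene RORA (-2.10), the endothelin gene EDN1 (-1.40) and CITED2 (-1.06), which competes with HIF for its coactivators, were also lower. Against these, PDK1, which keeps pyruvate out of mitochondria, was higher by 1.02 (SE 0.0774, limma adjusted p=9.03e-05) and FAM162A, a mitochondrial hypoxia target, by 0.91 (SE 0.0765, limma adjusted p=0.000143). In DU145, 24 of 72 pathway genes outside the members were higher and 20 lower, beside 22.9% and 20.5% of all genes. In CWR22Rv1, 17 of 70 were higher and 3 lower, beside 5.28% and 3.79% of all genes. Of the genes lower in CWR22Rv1, BHLHE40 kept its call in 17 of 17 alternatives. TPI1 and GAPDH lost theirs with chromosome medians removed and without a variance trend.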

How the data were processed

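RNA from 12 libraries, 3 per group, was prepared with a stranded polyadenylated RNA kit. The submitters' processing notes name FastQC, Salmon, DESeq2, R 3.5.3 and hg38; the roles of the tools are not given in the sources used here. The authors deposited a signal per gene, the count divided by a size factor, in 1 table per cell line. Whole reads were recovered for all values (tolerance 0.01); they may be rounded estimates from Salmon. Names and positions came from GENCODE release 29, which held 94.4% of identifiers.

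Each line was fitted with limma 3.58.1 in R 4.3.3 (eBayes with trend) on the log2 value of the normalised count plus 1, keeping genes whose mean was 5 or more, with Benjamini-Hochberg adjustment over all genes and a threshold of 0.05. Fold changes on this scale understate those of low genes. Alternatives were other pseudocounts, filters and scalings, a replicate block, chromosome centring, each library left out, edgeR 4.0.16 and DESeq2 1.42.0 on recovered reads. No replicate pair agreed within sampling noise (mean chi-square per gene 9.49 to 26.1).

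Members and lists were chosen with earlier results of these data known. Named genes were the members, GALNT7, subunit and oxygen-sensing genes and, per comparison and direction, up to 5 other pathway genes past the threshold with the largest change, a mean of at least 50 and no overlap of groups.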

Additional observations from a re-analysis of the deposited data

How the results depend on the processing

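Members higher and lower in knockdown stayed at 4 to 5 and 0 over 17 alternatives. In overexpression they stayed at 2 and 3 to 4, except that 1 was higher with 75th percentile scaling. All genes called in knockdown numbered 1623, against 1002 with the replicate block, 996 without a variance trend, 2666 in DESeq2 and 525 to 1332 with 1 library left out. Pathway genes higher in knockdown numbered 17, against 10 with 75th percentile scaling, 10 with the replicate block, 7 without a variance trend, 9 with chromosome-centred values and 3 to 12 with 1 library left out; the number lower was 3, against 1 without a variance trend and 1 with chromosome-centred values. The pathway median in knockdown was 0.17, against 0.15 with a mean of at least 50, 0.083 with 75th percentile scaling, 0.18 with quantile normalisation, 0.13 with chromosome-centred values and 0.15 to 0.20 with 1 library left out. In overexpression it was 0.05, against -0.087 with 75th percentile scaling and -0.022 with quantile normalisation. Members that differed from HIF1A in knockdown numbered 4, against 2 without a variance trend and 1 to 4 with 1 library left out. The cause of these shifts was not tested. The median of all genes under 75th percentile scaling was -0.09 in knockdown and -0.14 in overexpression.

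Same-numbered libraries deviated together weakly (correlation -0.01 to 0.07 in knockdown, 0.02 to 0.04 in overexpression), and 2 of 6 libraries in knockdown and 6 of 6 in overexpression correlated best with their own number, a hint from the data and not from the design; the numbers were not taken as pairs. With the replicate block EPAS1 lost its difference from HIF1A in knockdown; no other test of a member changed its call. FAM162A in knockdown (limma adjusted p=0.0502), HK2 (0.0687) and ELOC (0.0565) in overexpression, all named genes, no longer passed. Of the other pathway genes, DDIT4, P4HA1, PLOD1, PGAM1, ENO1 and AK4 lost their call in knockdown. KDM4B gained one in overexpression, as lower. Among the named genes, signs changed under an alternative 28 times in knockdown and 17 times in overexpression, in genes without a call. Depth limited CA9 and ANKRD37, with at most 67 reads per group.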
